A study of Mus musculus with 11 samples.

Results

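The 33 mature microRNAs (miRNAs) described here come from the imprinted Dlk1-Dio3 locus of mouse chromosome 12. They were chosen by name from a list of miRNAs of this locus and not by a cutoff on their values, but with earlier results of these data known. They make up 33 of the 1978 distinct miRNA names in the table. Small RNA was sequenced from sorted splenic CD8+ T cells of clean and dirty mice in 11 libraries. CD8+ T cells called virtual memory (VM) carry a memory phenotype without an encounter with foreign antigen, and those called true naive (TN) lack that phenotype. All groups were enriched with CD8a microbeads and sorted as CD4- CD8+ CD49dlo GFP+ cells, of which the stamped VM fraction was CD44hi and the stamped TN fraction CD44lo. TN cells of clean mice (Clean_TN) gave 2 libraries, numbered 2 and 3. VM cells of clean mice (Clean_VM) and both subsets of dirty mice (Dirty_TN, Dirty_VM) gave 3 each. Each sample held 10000 sorted cells at a stated purity above 95%, and libraries were made from 60 to 100 ng of RNA, size selected for inserts near 18 to 35 bp. The labels give no strain, age or genotype, and do not define dirty, stamped or the source of the GFP. Nothing in the labels says that replicates came from separate mice, so p-values measure the spread between these libraries, which may be technical. In bulk samples such as these, fewer cells of a type and less RNA per cell cannot be told apart.

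At the Dlk1-Dio3 locus the protein-coding genes Dlk1, Rtl1 and Dio3 are expressed from the paternal chromosome, and a set of long non-coding RNAs (Meg3, a transcript antisense to Rtl1, Rian and Mirg) from the maternal chromosome. The miRNAs are processed from these maternal transcripts, which form among the largest miRNA clusters of placental mammals. They are best known from brain, embryo, placenta and muscle, and in blood the locus is known for its part in the maintenance of hematopoietic stem cells.

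The libraries differed in size, with totals of 2614396 to 16312004 estimated counts. They fell on either side of a wide gap, with 5 libraries at 2614396 to 4116012 (low total count) and 6 at 9399645 to 16312004 (high total count), and every group had libraries of both kinds. The labels name no batch. Residuals from the group means were compared between libraries of different groups. They correlated at r = 0.041 to 0.554 (median 0.335) in the 22 such pairs with the same kind of total, and at -0.649 to 0.012 in the 23 others. Residuals of a group sum to 0, so the Clean_TN libraries mirror each other and the split of signs is in part arithmetic. These correlations run over miRNAs of a single table and carry no test. Outside the locus, miR-34c-5p, best known from testis and ciliated epithelium, lay at 26.8 to 131.8 CPM (counts scaled to a common library total) in all 5 libraries of low total count and was at 0 in all 6 others. It was chosen after its values were seen. In all, 19 rows were called lower in the libraries of high total count (edgeR), of which 13 were at 0 in all 6 of them, among these miR-34b-5p, miR-741-3p and miR-743a-3p. Their source, and any part in the levels of the locus, was not tested. The comparisons of groups below are therefore also given with the kind of total as a term in the model, an addition made after the totals were seen.

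Mature sequences are printed with the seed, bases 2 to 8 from the 5′ end, in capitals. They are RefSeq entries of GRCm38.p6, which matched 31 of the 33 members. The others, miR-376c-3p and miR-485-5p, are named only. The first set holds the 10 most abundant members, which carried most of the counts of the 33 members.
mmu-miR-369-3p: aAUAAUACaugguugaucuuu
mmu-miR-127-3p: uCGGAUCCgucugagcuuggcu
mmu-miR-409-3p: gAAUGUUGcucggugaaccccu
mmu-miR-543-3p: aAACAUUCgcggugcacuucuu
mmu-miR-495-3p: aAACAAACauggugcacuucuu
mmu-miR-412-5p: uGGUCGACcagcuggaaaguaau
mmu-miR-433-3p: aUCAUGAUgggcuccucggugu
mmu-miR-379-5p: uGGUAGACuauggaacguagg
mmu-miR-494-3p: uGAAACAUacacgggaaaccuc
mmu-miR-382-5p: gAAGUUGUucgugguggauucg
The second set holds members that are close in sequence or position to a member of the first set but had few or no counts, and the remaining miRNAs on which a comparison below turns.
mmu-miR-434-3p: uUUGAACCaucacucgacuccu
mmu-miR-136-5p: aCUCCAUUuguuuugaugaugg
mmu-miR-411-5p: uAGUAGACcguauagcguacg
mmu-miR-323-3p: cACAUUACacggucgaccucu
mmu-miR-329-3p: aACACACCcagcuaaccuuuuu
mmu-miR-381-3p: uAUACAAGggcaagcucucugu
mmu-miR-300-3p: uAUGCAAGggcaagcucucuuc
mmu-miR-409-5p: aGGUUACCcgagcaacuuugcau
mmu-miR-485-3p: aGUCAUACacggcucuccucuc
mmu-miR-299a-3p: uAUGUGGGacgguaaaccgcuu
The 31 sequences held 31 distinct seeds, so no members could be grouped by a shared seed. Of the 17 members that passed the filter on low counts, 15 had a seed that no other counted miRNA carried among the 1679 of 1978 table names with a RefSeq sequence. The exceptions were miR-299a-3p, which shares its seed with miR-299b-3p (6.5 counts in all), and miR-495-3p, which shares it with miR-1192 (1 count). Some members were nevertheless close to each other over their whole length. The miR-543-3p and miR-495-3p sequences were identical at 18 of 22 bases, including all 12 at the 3′ end, and differed at 2 of the 7 seed bases. The pair miR-381-3p and miR-300-3p was identical at 19 of 22 bases, 6 of them in the seed. For miR-379-5p and miR-411-5p, 14 of 21 bases were identical, with 6 of the 7 seed bases among them.

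All 28 hairpins that encode the members lay on the plus strand, at chr12:109586080-109743795 (GRCm38), a span of 157.7 kb between Meg3 and Dio3. They formed 2 blocks with single hairpins beside them. The antisense Rtl1 group, miRNAs processed from the transcript that runs opposite to Rtl1 and so pair perfectly with its mRNA, had 5 hairpins at chr12:109590447-109595388, opposite an exon of Rtl1. The miR-379 to miR-410 cluster had 21 hairpins at chr12:109709060-109743795. Its later part, from the miR-382 hairpin on, lay in exons and introns of Mirg, and its earlier part overlapped no annotated gene. The hairpin of miR-540-3p lay before Rtl1, and that of miR-370-3p in Rian.

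The locus gave a small but measurable part of the miRNA counts of these libraries. The 33 members together held 8160.5 estimated counts, or 0.00978% of all counts. Whether all of them came from the sorted cells was not tested, and a mature sequence that is the same in other cells or other mammals does not tell its source. Of the members, 17 passed the filter on low counts and were tested, 15 were counted but too low to test, and miR-329-3p was at 0 in all 11 libraries. A count of 0 allowed miR-329-3p a level of up to 0.180 to 1.23 CPM, depending on the library (3 counts per library, counting error only). The tested members held 98.4% of the counts, and 12 of them had a count in every library. Ranked by the mean of the group mean levels among 2008 distinct rows of the table, miR-369-3p stood at 224, miR-127-3p at 241, miR-409-3p at 259 and miR-543-3p at 275.

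The antisense Rtl1 group was uneven. Its 7 members held 22.8% of the member counts, most of them from miR-127-3p (chr12:109592888-109592909), which is known for guiding cleavage of the Rtl1 mRNA in placenta, with 1443 counts. Next came miR-433-3p (chr12:109591781-109591802) with 398 counts. The other 5 members of the group were counted too rarely to test. They were miR-434-3p with 11 counts in 2 libraries, miR-431-5p with 5 in 2 libraries, miR-434-5p with 3 in 1 library, and miR-136-5p and miR-136-3p with 1 count each. The hairpin of miR-434 is the next one after that of miR-127 on the same strand, so miRNAs of neighbouring hairpins were at 11 and 1443 counts.

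The miR-379 to miR-410 cluster, known in neurons for its activity-dependent expression and in newborn mice for its part in liver metabolism, held 77.0% of the member counts. Of its 24 members, 15 were tested. The most abundant was miR-369-3p (chr12:109743466-109743486), known for binding AU-rich elements, with 1748 counts. It was followed by miR-409-3p (chr12:109743204-109743225) with 965, miR-543-3p (chr12:109717304-109717325) with 843 and miR-495-3p (chr12:109718795-109718816) with 510. The next members were miR-412-5p (427), miR-379-5p (389), miR-494-3p (373), miR-382-5p (273) and miR-323-3p (181). Tested members with fewer counts were miR-410-3p (126), miR-411-5p (103), miR-381-3p (76), miR-409-5p (63), miR-299a-3p (62.5) and miR-485-3p (48). High counts therefore stood at both ends and in the middle of the cluster.

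Of the cluster, 8 members were counted but could not be tested. They were miR-485-5p with 57 counts in 9 libraries, miR-541-5p with 10 in 3, miR-300-3p with 9 in 3, miR-299a-5p with 5 in 3 and miR-376b-3p with 5 in 1. The lowest were miR-376c-3p with 4 counts in 3 libraries, miR-376a-3p with 2 in 2 and miR-154-5p with 1 in 1. The miR-376 family is known in brain for A-to-I editing of its seed. Of these pairs of similar sequence, miR-543-3p had 1.65 times the counts of miR-495-3p, miR-379-5p 3.78 times those of miR-411-5p, and miR-381-3p 8.44 times those of miR-300-3p. Outside the cluster, miR-370-3p from Rian had 13 counts in 4 libraries and miR-540-3p had 5 in 1 library. Clean_VM replicate 3 alone held 62 of the 132 counts of the 15 untested members, among them 26 of miR-485-5p and 10 of miR-434-3p.

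**Figure D1:**
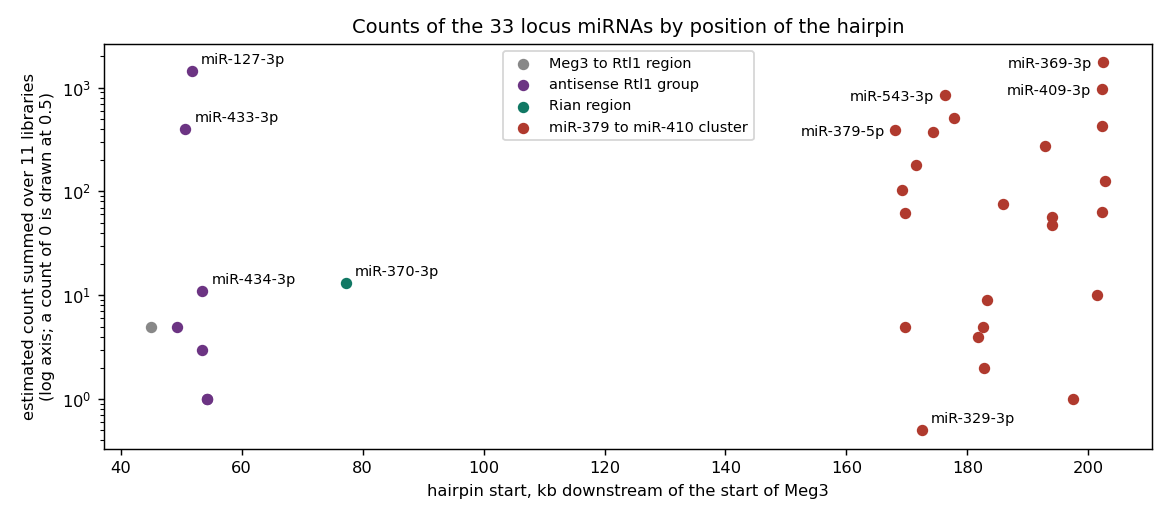
Estimated counts of the 33 members summed over 11 libraries (log axis, a count of 0 drawn at 0.5) against the start of the hairpin in kb from the start of Meg3, coloured by part of the locus. miR-127-3p (1443 counts) stands beside miR-434-3p (11), and miR-329-3p (0) lies inside the miR-379 to miR-410 cluster.

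Each hairpin can give a miRNA from its 5′ arm and from its 3′ arm, and at this locus a single arm usually held nearly all counts. The 3′ arm held 99.9% of the counts of the miR-127 hairpin, 99.7% for miR-369, 99.2% for miR-495 and 93.9% for miR-409, and was the higher arm in 11 of 11 libraries for each. The miR-409 hairpin was the only one with both arms tested, at 965 counts for miR-409-3p against 63 for miR-409-5p. For miR-412 the 5′ arm held all 427 counts, and for miR-379 the 3′ arm, which is no member, held 7.05%. An exception was miR-485, where the 5′ arm had 57 counts and the 3′ arm 48. There the 3′ arm was higher in 5 libraries and the 5′ arm in 4.

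Levels are CPM on library totals scaled by the TMM method, rounded to 3 digits. For miR-369-3p they were 20.9 and 20.5 in Clean_TN, 7.78, 16.9 and 13.4 in Clean_VM, 11.6, 7.50 and 23.2 in Dirty_TN, and 36.6, 4.52 and 34.8 in Dirty_VM, in order of replicate number. Both Clean_TN libraries lay above all 3 Clean_VM libraries, while Dirty_VM held the lowest library and both of the highest. For miR-127-3p the levels were 16.1 and 6.33 in Clean_TN, 8.05, 20.4 and 24.5 in Clean_VM, 9.90, 3.46 and 16.7 in Dirty_TN, and 13.4, 6.16 and 24.4 in Dirty_VM. The 4 groups overlapped, and within each of them every library of high total count lay above every library of low total count.

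The levels of miR-409-3p were 6.46 and 6.02 in Clean_TN, 7.25, 16.7 and 17.5 in Clean_VM, 12.7, 8.08 and 7.64 in Dirty_TN, and 10.7, 8.63 and 13.5 in Dirty_VM. Clean_VM lay above Clean_TN without overlap, and the dirty groups overlapped. For miR-543-3p they were 8.65 and 3.92 in Clean_TN, 4.03, 11.2 and 12.9 in Clean_VM, 8.48, 3.75 and 9.02 in Dirty_TN, and 13.7, 3.70 and 13.9 in Dirty_VM. All groups overlapped. The similar miR-495-3p lay at 4.83 and 5.72 in Clean_TN, 3.49, 4.49 and 4.11 in Clean_VM, 2.18, 2.02 and 8.86 in Dirty_TN, and 9.82, 2.88 and 9.91 in Dirty_VM. Here the clean libraries were close together and the dirty libraries of each subset split into high and low ones.

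The remaining members of the 10 most abundant lay between 0.822 and 10.4 CPM in every library. For miR-412-5p the lowest library was at 0.822 CPM, the median at 3.86 and the highest at 10.4, and for miR-433-3p they were at 1.81, 4.03 and 7.02. The range of miR-379-5p was 1.51 to 8.19 CPM (median 3.84), that of miR-494-3p 1.51 to 6.83 (median 2.91), and that of miR-382-5p 0.865 to 5.22 (median 3.21). Of the 7 lower tested members, 5 (miR-323-3p, miR-381-3p, miR-409-5p, miR-299a-3p and miR-485-3p) were at 0 in at least 1 library.

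In order of the mean of the 4 group means, miR-369-3p stood at 18.2 CPM, miR-127-3p at 13.4, miR-409-3p at 10.1, miR-543-3p at 8.29 and miR-495-3p at 5.30. Neighbours in that order overlapped widely over the 11 libraries. Counting alone gave miR-127-3p an error of 28.9% in its lowest library (12 counts) and 4.96% in its highest (407 counts). The coefficient of variation between libraries of a group, as edgeR estimated it beyond counting error, had a median of 52.8% over the tested members, from 33.2% for miR-409-3p to 90.6% for miR-299a-3p. Over all 545 tested rows its median was 33.2%, and over the 293 other rows at the members' levels 45.3%.

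**Figure D2:**
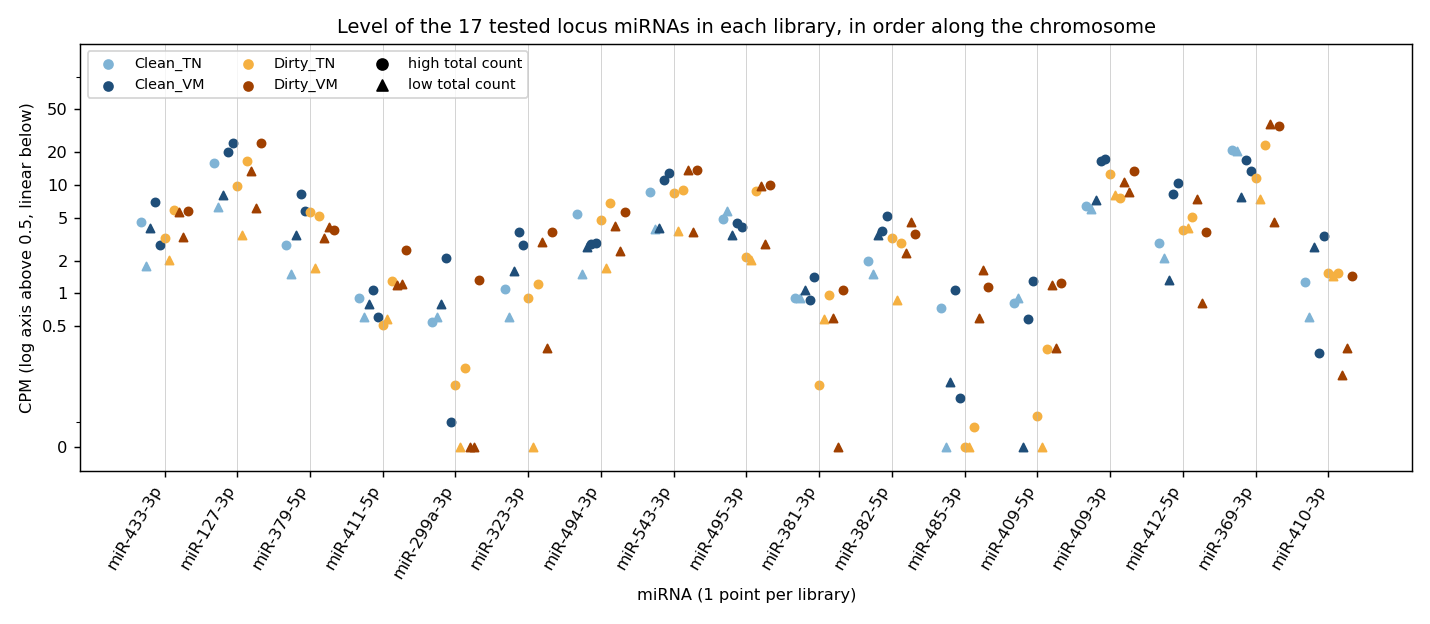
CPM of the 17 tested members in each of the 11 libraries (log axis above 0.5, linear below), in order along the chromosome, coloured by group, with circles for libraries of high and triangles for libraries of low total count. Groups overlap for most members, and for miR-127-3p the circles of each colour lie above its triangles.

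The first comparison asked whether VM and TN cells differ in these miRNAs. None of the 17 tested members passed in clean mice, in dirty mice or on average (edgeR quasi-likelihood test, Benjamini-Hochberg adjusted over 545 rows, threshold 0.05). Of all rows, 17.4% passed in clean mice, 12.1% in dirty mice and 23.7% on average. At an unadjusted p under 0.05 there were 3 members in clean mice, 1 in dirty mice and 4 on average, among 167, 136 and 191 of all 545 rows. DESeq2 called 1, 0 and 1 members, among 117, 88 and 144 rows. It gave no adjusted p for 2 members in clean mice and 4 in dirty mice, miR-485-3p in both. Most estimates were nevertheless above 0, meaning higher in VM cells. They were above 0 for 13 of 17 members in clean mice (52.8% of all rows), 13 of 17 in dirty mice (50.8%) and 16 of 17 on average (54.5%). The median log2 difference of the members on average was 0.58, against 0.09 over all rows. A member can pass the low-count filter through the libraries where it is high, so these counts and medians describe the tested members and are no test of the locus.

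The smallest adjusted p in clean mice was that of miR-409-3p, with a mean of 13.8 ± 5.68 CPM (SD, n = 3) in Clean_VM and 6.24 ± 0.312 (n = 2) in Clean_TN. Its log2 difference was 1.15 ± 0.41 (SE, edgeR adjusted p = 0.0701). Next in clean mice were miR-379-5p, at 1.37 ± 0.54 (adjusted p = 0.100 in edgeR), and miR-382-5p, at 1.22 ± 0.55 (adjusted p = 0.152 in edgeR). In clean mice 6 members did not overlap between the subsets, against 52.7% of all rows. These were miR-379-5p, miR-323-3p, miR-382-5p and miR-409-3p, higher in Clean_VM, and miR-495-3p and miR-369-3p, lower in Clean_VM. None of these 6 differences was called, and those of miR-495-3p and miR-369-3p had an edgeR adjusted p of 0.712 and 0.503.

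In dirty mice the smallest adjusted p was that of miR-485-3p, a miRNA known from synapses. It lay at 0, 0 and 0.0813 CPM in Dirty_TN, which is 1 count in 3 libraries, and at 0.595, 1.64 and 1.14 CPM in Dirty_VM. Its fitted log2 difference of 4.33 ± 1.42 (edgeR adjusted p = 0.0720) rests on that single Dirty_TN count and depends on the prior count of the fit. The groups also did not overlap for miR-409-5p (higher in Dirty_VM) and miR-410-3p (lower in Dirty_VM), so that 3 of 17 members lacked overlap, against 30.5% of all rows. For miR-409-3p the difference in dirty mice was 0.22 ± 0.35 (edgeR adjusted p = 0.760), and the difference between the environments was itself not called (-0.93 ± 0.53, edgeR adjusted p = 0.374).

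Averaged over both environments, miR-323-3p had the smallest adjusted p. It lay at 1.09 and 0.602 CPM in Clean_TN and 0.900, 0 and 1.22 in Dirty_TN. In Clean_VM it lay at 1.61, 3.71 and 2.81, and in Dirty_VM at 2.98, 0.411 and 3.72. All VM libraries but Dirty_VM replicate 2 exceeded all TN libraries. The log2 difference was 1.62 ± 0.60 (edgeR adjusted p = 0.0705), followed by miR-409-3p at 0.69 ± 0.27 (edgeR adjusted p = 0.0839), miR-485-3p at 2.29 ± 0.95 (adjusted p = 0.106) and miR-382-5p at 0.86 ± 0.36 (adjusted p = 0.113). For the abundant miR-369-3p the average difference was 0.08 (95% interval -0.90 to 1.06), and for miR-127-3p it was 0.59 (-0.41 to 1.60). The single member below 0 was miR-494-3p at -0.24 (-1.09 to 0.61).

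**Figure D3:**
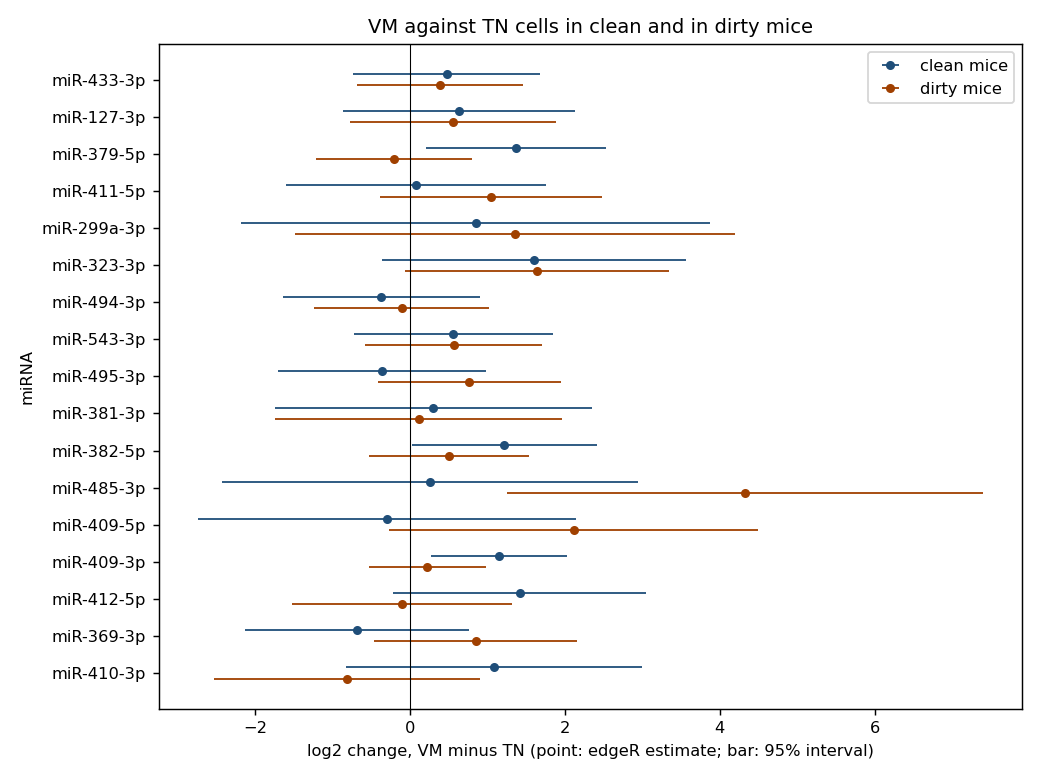
Log2 difference VM minus TN for the 17 tested members in clean and in dirty mice (points: edgeR estimates, bars: 95% intervals), in order along the chromosome. Most points lie right of 0 and most bars cross 0. Among others, miR-379-5p and miR-369-3p have opposite signs in the 2 environments.

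Some of these calls depended on the treatment of the 2 kinds of library. With the kind of total count as a term, 3 of 17 members passed on average in edgeR, beside 138 of all 545 rows, namely miR-323-3p (log2 difference 1.80, adjusted p = 0.0180), miR-127-3p (0.75, adjusted p = 0.0339) and miR-409-3p (0.71, adjusted p = 0.0379). Over all their alternatives the adjusted p ranged from 0.0180 to 0.343 for miR-323-3p, 0.0339 to 0.776 for miR-127-3p and 0.0142 to 0.912 for miR-409-3p. In dirty mice the same term let miR-127-3p (1.08, edgeR adjusted p = 0.0442) and miR-485-3p (4.67, edgeR adjusted p = 0.0345) pass, beside 73 of all 545 rows. Over the alternatives in dirty mice the adjusted p ranged from 0.0442 to 0.978 for miR-127-3p and from 0.0345 to 0.138 for miR-485-3p. Within the 5 libraries of low total count, 9 of the 11 members tested there were above 0 (median 0.77), and within the 6 of high total count 16 of 17 (median 0.59). No member passed within either set.

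Single libraries also decided calls. Without Clean_VM replicate 1, which had the lowest miR-409-3p level of that group, miR-409-3p passed in clean mice (log2 difference 1.50, edgeR adjusted p = 0.0120, range over its alternatives 0.0120 to 0.323) and on average (0.84, edgeR adjusted p = 0.0142). Without Dirty_TN replicate 3, which had the highest level of miR-495-3p in that group, miR-495-3p passed in dirty mice (1.95, edgeR adjusted p = 0.0179, range 0.0179 to 0.772) and in the interaction (2.42, edgeR adjusted p = 0.0309, range 0.0309 to 0.945). Without Dirty_TN replicate 3 or without Dirty_VM replicate 2, miR-323-3p passed on average (1.88 and 1.81, edgeR adjusted p = 0.0483 and 0.0375).

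The second comparison asked whether cells of dirty mice differ from those of clean mice. No tested member passed in TN cells, in VM cells or on average (edgeR), and neither did any other row, which makes a background of 0%. At an unadjusted p under 0.05 there were 0 members among 38 rows in TN cells, 0 among 81 in VM cells and 0 among 28 on average, and DESeq2 called 3, 22 and 1 rows but no member. In VM cells DESeq2 gave an adjusted p for only 3 of the 17 members. The signs were mixed, with 9 of 17 members above 0 in TN cells (60.9% of all rows), 8 in VM cells (56.3%) and 9 on average (66.1%). The median log2 differences of the members were 0.08, -0.12 and 0.08, against 0.16, 0.08 and 0.11 over all rows. With the kind of total as a term, edgeR again called no row. Then 9, 10 and 10 of the 17 members were above 0, with medians of 0.0035, 0.25 and 0.12. The width of the intervals limits what could be seen. For miR-127-3p the average difference was -0.20 (95% interval -1.19 to 0.79), for miR-369-3p 0.24 (-0.75 to 1.22), for miR-543-3p 0.16 (-0.70 to 1.01) and for miR-409-3p, the most precise, 0.13 (-0.44 to 0.70).

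The interaction, that is the VM minus TN difference in dirty mice less the same difference in clean mice, was not called for any member or any other row (0%, edgeR). At an unadjusted p under 0.05 there were 2 members among 93 rows, and DESeq2 called 41 rows but no member, though it gave an adjusted p for only 3 of the 17. The members under that unadjusted threshold were miR-379-5p (-1.58 ± 0.71, edgeR adjusted p = 0.271) and miR-485-3p (4.07 ± 1.87, edgeR adjusted p = 0.287). For miR-379-5p, Clean_VM (3.49, 8.19 and 5.72 CPM) lay above Clean_TN (2.82 and 1.51), while Dirty_VM (3.27, 4.11 and 3.84) lay within the range of Dirty_TN (5.65, 1.73 and 5.20). Interaction estimates were above 0 for 9 of 17 members (47.3% of all rows), with a median of 0.0021. With the kind of total as a term they were above 0 for 12 of 17 (median 0.60), and edgeR again called no row.

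The sign of the estimates was most uniform between the 2 kinds of library. This comparison, libraries of high against low total count beside the 4 group means, was chosen after the data were seen. All 17 tested members had estimates above 0, against 52.7% of all rows, with a median log2 difference of 0.75 against 0.01 over all rows. A member can pass the low-count filter through the libraries where it is high. These signs and medians therefore describe the tested members and are no test of the locus. One member, miR-127-3p, passed as higher (edgeR), against 1.28% of all rows (4.77% in either direction), and 6 members had an unadjusted p under 0.05, among 67 of all 545 rows. No member was higher in all libraries of high total count than in all others, as were 0.367% of all rows. Its log2 difference was 1.49 ± 0.26 (edgeR adjusted p = 0.0022, range over 16 alternatives 7.332e-07 to 0.0349), with 9.90 to 24.5 CPM (median 18.6) in the libraries of high total count and 3.46 to 13.4 (median 6.33) in the others. Among the rows called as higher, miR-127-3p had the largest estimate, nearly the same as that of miR-8117 (1.49 ± 0.37, SE). The other 6 rows called as higher lay outside the locus and were named after their values were seen. They were miR-8117, miR-1981-5p, the erythroid miR-486a-5p and miR-486b-5p, the hepatocyte miR-122-5p and the endothelial miR-126a-3p.

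For 4 members, miR-127-3p, miR-323-3p, miR-494-3p and miR-543-3p, every library of high total count lay above every library of low total count within each of the 4 groups, against 5.50% of all rows. The estimate of miR-543-3p was 1.11 ± 0.31 (edgeR adjusted p = 0.0624), and it passed without Dirty_VM replicate 1 (1.46, edgeR adjusted p = 0.0033, range over alternatives 0.0033 to 0.418). For several members that library stood apart from the others of low total count, with 36.6 CPM of miR-369-3p and 13.7 of miR-543-3p. Differences were smallest for miR-410-3p (0.45 ± 0.61) and miR-381-3p (0.48 ± 0.66).

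Summed over all 33 members, the level was 82.0 and 55.4 CPM in Clean_TN, 53.9, 110.9 and 115.5 in Clean_VM, 69.3, 38.4 and 98.1 in Dirty_TN, and 115.1, 46.8 and 132.4 in Dirty_VM. The group means were 68.7 ± 18.8 (SD, n = 2), 93.4 ± 34.3 (n = 3), 68.6 ± 29.9 (n = 3) and 98.1 ± 45.3 (n = 3), so the groups overlapped. Among the 6 libraries of high total count, the 3 VM libraries (110.9 to 132.4) lay above the 3 TN libraries (69.3 to 98.1). On library totals without TMM scaling these subsets overlapped. Dirty_TN replicate 3 was then at 111.55 CPM, and Clean_VM replicates 2 and 3 were at 107.64 and 110.45. Among the 5 of low total count, the TN libraries (38.4 and 55.4) and the VM libraries (46.8, 53.9 and 115.1) overlapped. Without Clean_TN replicate 3 the Clean_TN sum was 87.6 CPM, from a single library. Without miR-369-3p the group means were 48.1, 80.7, 54.5 and 72.8 CPM in the same order of groups.

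**Figure D4:**
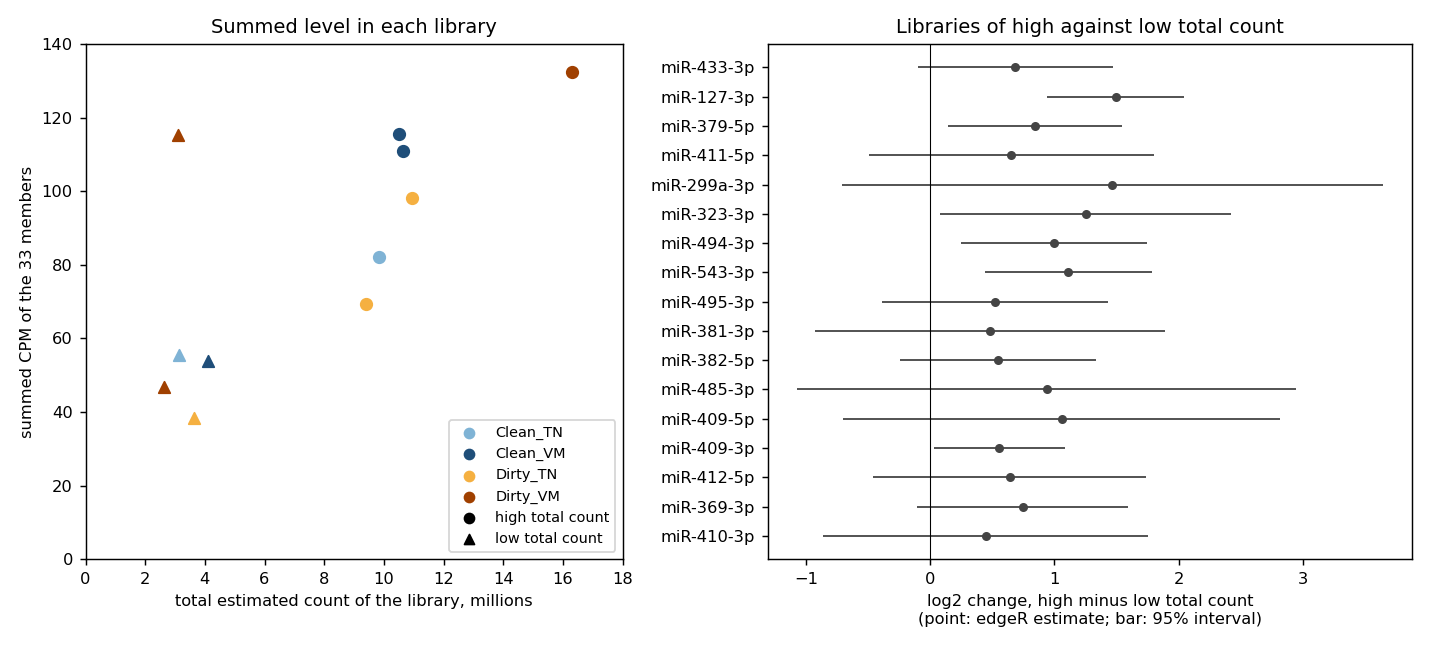
Left, summed CPM of the 33 members against the total estimated count of each library, coloured by group, with circles for high and triangles for low total count. Right, log2 difference between libraries of high and low total count for the 17 tested members (points: edgeR estimates, bars: 95% intervals). All points on the right lie above 0, and Dirty_VM replicate 1 is the low-total library with a high sum.

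Most other miRNAs of the locus were not counted. Of 65 further mature names listed for it, 19 had a count and 46 were at 0 in every library. They held 563 counts in all, of which 425 belonged to miR-493-5p, from the hairpin region between Meg3 and Rtl1, and it alone passed the filter. It lay at 1.23 to 7.75 CPM. No comparison called it, with a VM minus TN average of 0.67 ± 0.45 (edgeR adjusted p = 0.314), and its difference between libraries of high and low total count was 1.06 ± 0.40 (edgeR adjusted p = 0.229).

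Markers of other cells were read beside these results. Those of T cells were abundant, with miR-150-5p, the leading miRNA of resting lymphocytes, at 66250 to 134300 CPM. Lists of other cells were mixed. Among 8 neuronal and neuroendocrine names, the neuron-specific miR-124-3p was at 0 in 8 libraries and had 1.33 counts in all, while miR-7a-5p lay at 8708 to 17160 CPM and miR-375-3p had 294 counts. Among 5 muscle and hepatocyte names, the heart-specific miR-208a-3p was at 0 in all 11 libraries, while the muscle miRNAs miR-133a-3p and miR-1a-3p had 676 and 510 counts. Summed marker levels of most lists had a higher median in libraries of high total count, as did the summed level of the members. In libraries of high and low total count the medians of the summed levels were 172.9 and 119.6 CPM for 4 erythroid names, 36.8 and 21.7 for 2 endothelial and platelet names, 199.4 and 137.7 for 8 stromal names, and 2162 and 1224 for 5 muscle and hepatocyte names. The last sum was mostly miR-122-5p, with medians of 2148 and 1215 CPM. For T cell names the medians were 125040 and 113120 CPM, for neuronal names 13435 and 12798, and for myeloid names 1.77 and 1.64. The T cell sum was mostly miR-150-5p (99190 and 86950) and the neuronal sum mostly miR-7a-5p (13430 and 12790). Of the T cell names, miR-342-3p and miR-181a-5p also had higher medians, while miR-142a-3p, miR-142a-5p, miR-146a-5p and miR-155-5p had lower ones. In edgeR the median log2 difference, high minus low total, was -0.12 over T cell rows and -0.21 over neuronal rows. It was above 0 for the other lists. Epithelial names went the other way, at 2607 and 2757 CPM. The ranges overlapped for each of these lists, at 76.5 to 260.2 against 59.6 to 128.8 CPM for the erythroid names and 19.3 to 53.0 against 15.3 to 36.3 for the endothelial ones. In the VM minus TN average, edgeR called 2 of 3 tested erythroid rows, 1 of 2 endothelial, 1 of 4 muscle and hepatocyte, 1 of 8 stromal and 2 of 7 epithelial rows, all higher in VM cells, and 0 of 4 neuronal rows and 0 of 1 myeloid row. Of 7 tested T cell rows, 2 were called higher and 2 lower in VM cells. Their part in the levels of the locus was not tested.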

How the data were processed

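The table held estimated counts per mature miRNA and hairpin as the authors deposited them, unscaled, with 88.7% of values whole. The submitters' processing notes name mm10. For the aligner, counter and annotation, names are not given in the sources used here. Of 2128 rows, 120 exact repeats were dropped. Counts were rounded, and filterByExpr on the 4 groups, taken from the titles, kept 545 rows (99.99% of counts). edgeR 4.0.16 (R 4.3.3) fitted 1 mean per group over all 11 libraries with TMM scaling and a robust quasi-likelihood test. Tests were two-sided, with Benjamini-Hochberg adjustment over 545 rows and a threshold of 0.05. SE is the absolute log2 change over the square root of F. Group SDs are over libraries. All members were named, with values by whether they passed the filter. Members and lists were chosen with earlier results of these data known. The tests were tried on simulated data. Alternatives were other scalings, filters, DESeq2 1.42.0, rows summed per name, fewer groups, a replicate block and each library left out. The split by total count was added after the data were seen. Reads carry no molecular identifiers, so floors and counting errors cover counting only.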

Additional observations from a re-analysis of the deposited data

How the results depend on the processing

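Of 2319 log2 differences of single members recomputed with an adjusted p under another setting, 2302 stayed on their side of the threshold and 17 newly passed, while 34 from DESeq2 had no adjusted p. Members passing changed from 0 to 1 in clean mice (VM against TN) with DESeq2, to 1 in dirty mice and 1 on average without the low-count filter, and to 1 on average with DESeq2. With the kind of total count as a term they were 2 in dirty mice (of 73 rows called) and 3 on average (of 138). Leaving out 1 library gave 0 to 1 members in each VM against TN comparison and in the interaction, and 1 to 2 for high against low total count, where dropping the filter gave 2. The stricter filter of 10 CPM in 2 libraries left 5 members to test. Depth limits members below 0.805 CPM, where every library of low total count holds under 3 counts.

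Over all rows, dirty against clean in VM cells went from 0 to 2 with library totals, 16 without the filter, 2 with the stricter filter, 22 with DESeq2 and 18 with only the groups compared. In TN cells it went from 0 to 4 without the filter and 3 with DESeq2. On average it went from 0 to 1 without the filter, 1 with DESeq2 and 4 in libraries of low total count. The interaction went from 0 to 30 without the filter, 16 with the stricter filter, 41 with DESeq2 and 1 in libraries of low total count. VM against TN on average went from 129 to 35 in the low-total and 47 in the high-total libraries, and high against low total count from 26 to 10 with the stricter filter. Fits within a kind of total or with only the groups compared hold fewer libraries, and the stricter filter keeps fewer rows. Causes of the changes were not tested.

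Leaving out 1 library, the rows called ranged from 33 to 120 for VM against TN in clean mice (fewest without Clean_TN replicate 3, then 34 without Clean_TN replicate 2 and 61 without Clean_VM replicate 3), 42 to 94 in dirty mice (fewest without Dirty_VM replicate 3) and 86 to 145 on average. Dirty against clean ranged from 0 to 28 in TN cells and 0 to 26 in VM cells, and the interaction from 0 to 73, each highest without Dirty_TN replicate 3. High against low total count ranged from 8 to 27, with 8 without Dirty_TN replicate 2 and 17 without Clean_VM replicate 1. The summed level ranged from 56.8 to 87.6 CPM in Clean_TN, 77.2 to 122.6 in Clean_VM, 49.6 to 82.7 in Dirty_TN and 80.5 to 117.4 in Dirty_VM.

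Whether the replicate numbers pair libraries cannot be told here. The 15 same-numbered pairs from different groups correlated at -0.554 to 0.416 (median -0.193). Many of them join a library of high with one of low total count, and such pairs correlated at -0.649 to 0.012 over all numbers. With the number as a replicate block, rows called for VM against TN in clean mice went from 95 to 56, and no member passed in any comparison.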
